A study of Mus musculus with 51 samples.

Results

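Interferon-induced genes are the set that a cell switches on when an interferon, a cytokine released during infection, reaches it, and 34 of them were listed by name for a description across 4 blood-forming cell populations of mouse bone marrow. Each gene was represented by 1 probe set, the one with the highest mean over all arrays, and 32 of the 34 had a probe set assigned to that gene alone, among 18193 genes measured. The probe set of Isg15, a ubiquitin-like protein, is shared with Gm9706 and was not used, and Ifi44 was not analysed here. Type I interferons bind the Ifnar1 and Ifnar2 receptor, whose kinases activate STAT proteins. Together with Irf9, Stat2 enters the nucleus and binds a short DNA element in front of many of the genes described here. The proteins they encode detect viral RNA, block its translation or replication, or tune the response itself, and stem cells are known to hold some of them at a steady level without infection.

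RNA was hybridised to 51 Affymetrix arrays from populations sorted by flow cytometry out of whole bone marrow, and lysed at once in extraction buffer. The populations were haematopoietic stem cells (HSC), common lymphoid progenitors (CLP), common myeloid progenitors (CMP) and granulocyte-macrophage progenitors (GMP), from wild-type mice or from Mll-AF9 knock-in mice, which carry the leukaemia fusion gene at the Mll locus. Wild type gave 5 replicates of HSC, 8 of CLP, 5 of CMP and 5 of GMP, and Mll-AF9 gave 5, 7, 4 and 4, which makes 43 replicates after repeat arrays of a CMP replicate were averaged. No treatment is named in any group, and neither age, sex, strain nor zygosity is stated in the labels. They do not say that replicates are separate mice either, so the p-values cover sample-to-sample spread that can be technical. Its stated purpose was to find genes whose expression Mll-AF9 alters in each population.

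The values are log2 intensities, and a mean at or below 4.46 was taken as background, the 95th percentile of 112 receptor and keratin-associated genes that blood cells are not known to use. The source name of all 7 Mll-AF9 CLP samples and of wild-type CLP replicate 1 is that of CMP, and their titles were followed. Averaged over each list, GMP markers lay at 12.1 to 12.8 in GMP and at most at 10.7 elsewhere, CMP and erythroid markers at 7.98 to 8.18 in CMP and at most at 6.74 elsewhere, and CLP markers at 7.64 to 10.1 in CLP and at most at 7.13 elsewhere. Of the CLP markers, Dntt and Flt3 were also high in wild-type HSC, at 11.59 and 9.86 against 12.30 and 10.05 in CLP. Il7r, Rag1 and Vpreb1 were lower there, at 5.05, 3.28 and 4.30 against 9.54, 6.82 and 8.175. In Mll-AF9 CLP, Vpreb1 lay at 4.63, little above background. HSC markers reached 6.93 to 8.22 in HSC but also 5.87 to 8.24 in CLP, and Slamf1, one of the 4 measured, lay below background in wild-type HSC at a mean of 4.35. The mean of 3 Y-linked genes lay at 2.21 to 2.72 in the 20 Mll-AF9 replicates and at 2.39 to 7.33 in the 23 wild-type replicates, so the genotypes also differ in sex-linked RNA. Wild-type HSC replicate 5 and Mll-AF9 CLP replicate 4 stood apart from their groups in the interferon-induced genes themselves and are described last. They were not the only ones. Mll-AF9 CMP replicate 1 was the highest of its group for 19 of the 32 genes, as for 21.9% of all genes. Its distance from the mean of the others passed 1 log2 unit upward for 5 of them. Wild-type HSC replicate 1 was the lowest of its group for 17, as for 30.9% of all genes. The main counts and medians that the HSC replicate moves are also given without it.

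The DNA element through which such genes are known to answer interferon is shown first. It was found in front of members with otherwise unlike functions, though not of all members. Promoter windows of 300 bases, RefSeq GRCm38.p6, were found for 26 of the 32 measured genes, the others being Oas2, Mx1, Mx2, Usp18, Dhx58 and Parp14. The letters GAAANNGAAA, the core of the interferon-stimulated response element, were searched on both strands. They occurred in the windows of 16 of the 26 genes (61.5%), against 3.99% of 27025 genes in the table. Below are 80-base stretches, 5' to 3' on the strand of the gene and wholly upstream of the start used for its window. They are of 4 genes with a match and large differences between populations, and of 3 further interferon-inducible GTPases, which moved together in 1 replicate. Oasl2, which also differed strongly between populations, had no match and is not shown. For Gbp3, the gene coordinates kept with the probe sets begin at 142560016, inside the stretch shown. Capitals mark each match, which reads TTTCNNTTTC where it lies on the opposite strand.
Rsad2, chr12:26456528-26456607, minus strand: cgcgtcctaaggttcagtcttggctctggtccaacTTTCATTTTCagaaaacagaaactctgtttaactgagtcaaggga
Ifit1, chr19:34640769-34640848, plus strand: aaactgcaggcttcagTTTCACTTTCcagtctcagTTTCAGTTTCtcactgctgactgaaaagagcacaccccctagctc
Trim30a, chr7:104465194-104465273, minus strand: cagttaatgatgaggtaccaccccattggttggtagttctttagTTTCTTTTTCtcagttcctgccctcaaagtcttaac
Gbp2, chr3:142620569-142620648, plus strand: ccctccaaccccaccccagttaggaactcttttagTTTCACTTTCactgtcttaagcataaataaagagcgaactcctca
Gbp3, chr3:142559964-142560043, plus strand: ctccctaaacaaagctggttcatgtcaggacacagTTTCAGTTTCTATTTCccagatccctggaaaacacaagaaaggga
Igtp, chr11:58199476-58199555, plus strand: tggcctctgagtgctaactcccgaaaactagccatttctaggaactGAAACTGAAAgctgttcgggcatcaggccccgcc
Irgm1, chr11:48871421-48871500, minus strand: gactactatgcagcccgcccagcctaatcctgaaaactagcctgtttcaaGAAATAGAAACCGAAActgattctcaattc
Ifit1 had 2 such matches in its window and Rsad2, Trim30a, Gbp2 and Igtp had 1, while Gbp3 and Irgm1 had 2 that overlap. The upstream match nearest the start began 85 bases before it in Ifit1, 120 in Rsad2, 36 in Trim30a, 59 in Gbp2, 39 in Gbp3, 34 in Igtp and 24 in Irgm1. No match was found for Irf1, Irf7, Irf9, Ifit2, Isg20, Oasl1, Oasl2, Ifi35, Trim25 and Xaf1, which says only that these letters are not in this window. Of the genes later found lower in wild-type GMP than in HSC, 8 of 15 with a window held the letters, and 8 of 11 of the other genes did. For CMP against HSC the counts were 11 of 16 and 5 of 10.

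**Figure D1:**
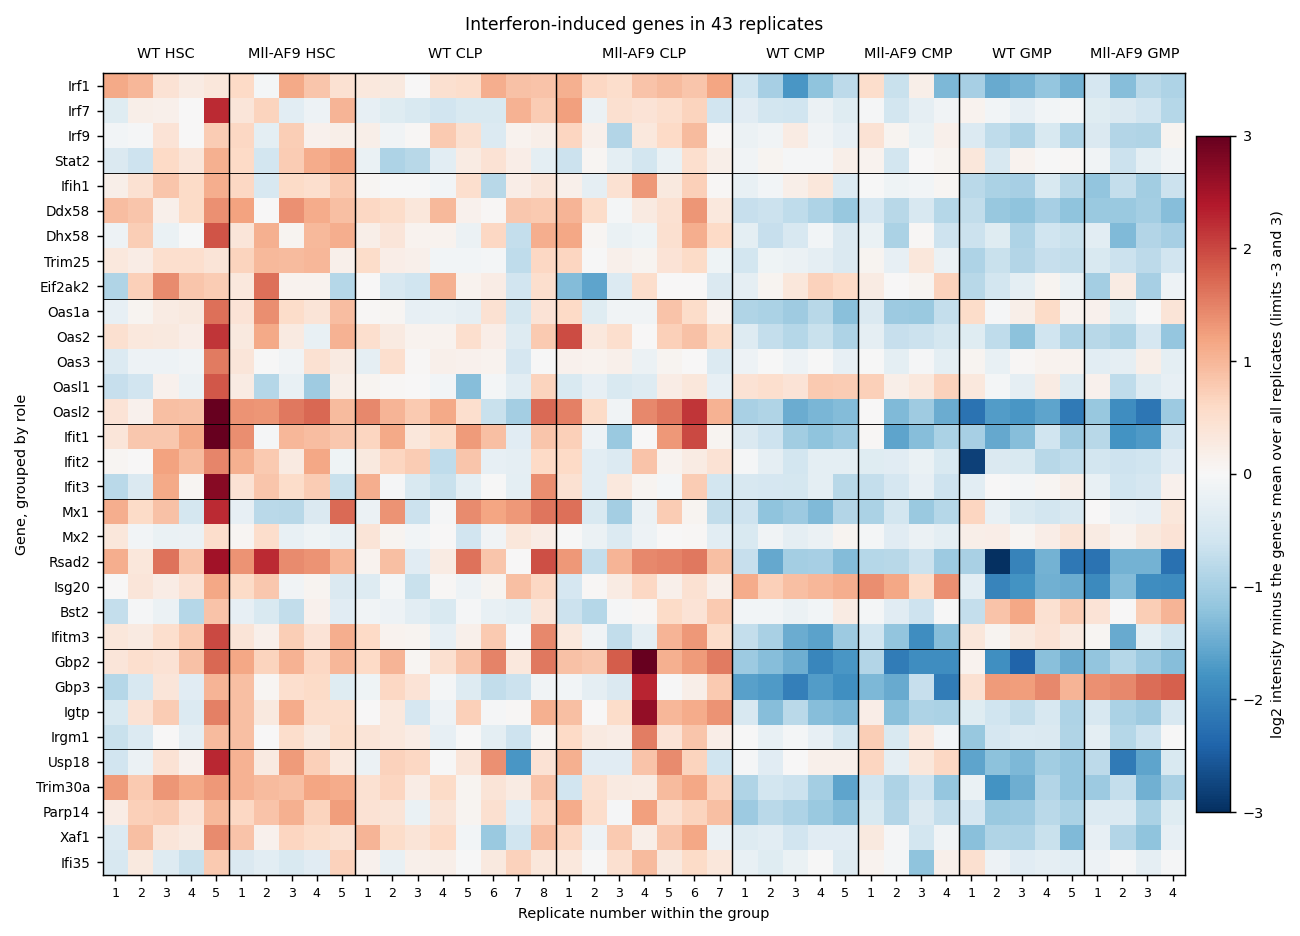
Heat map of the 32 interferon-induced genes (rows, ordered by role and separated by lines) in 43 replicates (columns, by group), as log2 intensity minus the mean of the gene over all replicates, with colours ending at -3 and 3. HSC and CLP columns are mostly red and CMP and GMP columns mostly blue, Gbp3 is red in GMP, Isg20 is red in CMP, and wild-type HSC replicate 5 is red in nearly all rows.

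Across populations, these genes were lower in the myeloid progenitors than in stem cells and lymphoid progenitors. In wild type, the median over the 32 genes of a replicate was 7.27 ± 0.71 in HSC (SD, n = 5), 7.06 ± 0.28 in CLP (n = 8), 6.40 ± 0.11 in CMP (n = 5) and 6.08 ± 0.23 in GMP (n = 5). Every CMP and GMP replicate, at 5.80 to 6.57, lay below every HSC and CLP replicate, at 6.64 to 8.52. In Mll-AF9 the median was 7.36 ± 0.23 in HSC (n = 5), 7.36 ± 0.29 in CLP (n = 7), 6.53 ± 0.23 in CMP (n = 4) and 6.30 ± 0.12 in GMP (n = 4). Without HSC replicate 5, the HSC median became 6.95 ± 0.12 (n = 4), below that of CLP, so the order of HSC and CLP rests on that replicate. The highest wild-type mean was in HSC for 24 of the 32 genes, in CLP for 3, in GMP for 3 and in CMP for 2. Without HSC replicate 5, these counts became 14, 11, 4 and 3. In Mll-AF9, with CLP replicate 4 included, the highest mean was in HSC for 19 genes, in CLP for 8, in GMP for 3 and in CMP for 2. Since these are bulk samples, fewer cells with the RNA and less RNA per cell cannot be told apart. CMP values carry up to 9 decimals against 2 in the other groups, so separate processing of the CMP arrays is possible, which was not tested.

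**Figure D2:**
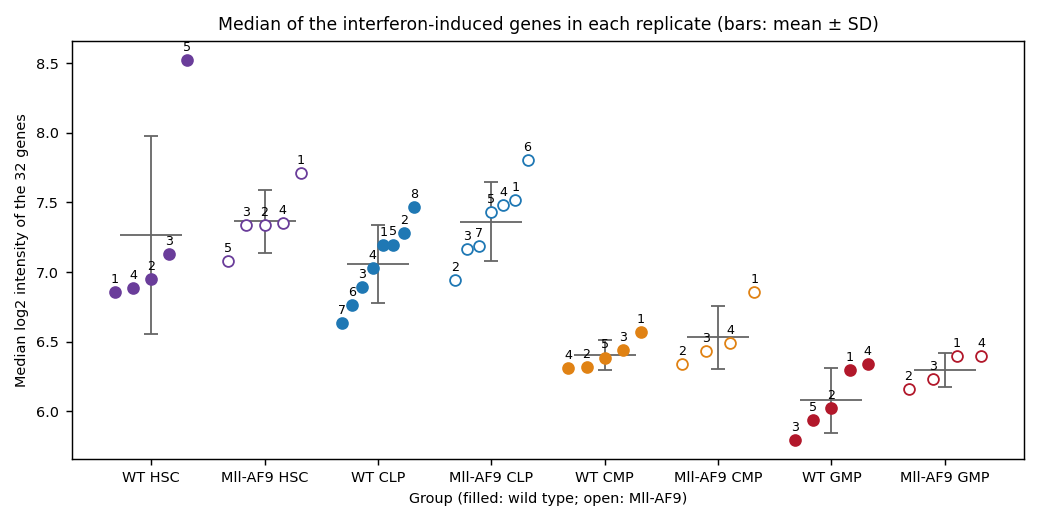
Median log2 intensity of the 32 interferon-induced genes in each replicate (points with the replicate number; filled, wild type; open, Mll-AF9), with the group mean and SD as bars. CMP and GMP replicates lie between 5.80 and 6.86, all below the HSC and CLP replicates except that Mll-AF9 CMP replicate 1 overlaps the lowest CLP replicates, and wild-type HSC replicate 5 is the highest at 8.52.

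Comparing wild-type GMP with wild-type HSC asks how the set differs between a committed myeloid progenitor and the stem cell. In GMP, 19 of the 32 genes were lower and 1, Gbp3, was higher (limma, Benjamini-Hochberg adjusted p below 0.05 over all 18193 genes). Over all genes tested, 13.5% were lower in GMP and 24.6% higher. The median difference of the 32 genes was -1.07, against 0.14 over all genes, and 29 of the 32 means were lower in GMP. In wild-type CMP against HSC, 20 genes were lower and none higher, where 10.7% of all genes were lower and 11.7% higher, and the median difference was -0.96 against 0.01. Both comparisons use the same 5 HSC replicates. Without HSC replicate 5, which was high for nearly the whole set, 17 genes were lower and 2 higher in GMP (median -0.83), and 15 lower and 1 higher in CMP (median -0.69). The calls lost without it were Eif2ak2 and Igtp in GMP, and Ifit2, Ifit3, Ifih1, Dhx58 and Xaf1 in CMP.

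Among the transcription factors that carry or amplify the signal, Irf1, an early factor that also answers interferon gamma, was lower in both myeloid populations. Its difference from HSC was -1.92 (SE 0.26) in GMP and -1.70 (SE 0.26) in CMP. Irf9, the DNA-binding partner of the STAT proteins, was lower in GMP (difference -0.92, SE 0.25), while its difference in CMP, -0.29, was not called. Irf7, which amplifies the response by driving interferon genes, differed by -0.52 in GMP and -0.85 in CMP, neither called (adjusted p 0.228 and 0.0586). Stat2, a subunit of the activated complex, differed by -0.20 and -0.18 and was not called either, and its means of 4.84 to 5.04 lay little above background.

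Among the sensors of viral RNA and their partners, all 5 were called lower in GMP and 4 of 5 in CMP, where 13.5% and 10.7% of all genes were. Without HSC replicate 5, 4 of these remained lower in GMP and 2 in CMP, Ddx58 and Trim25. Ddx58, the sensor RIG-I, differed from HSC by -1.83 (SE 0.23) in GMP and -1.60 (SE 0.23) in CMP, and Ifih1, the sensor MDA5, by -1.43 (SE 0.23) and -0.67 (SE 0.23). Dhx58, the regulatory relative LGP2, differed by -1.08 and -0.84, and Trim25, the ubiquitin ligase that acts on RIG-I, by -1.17 and -0.70. Eif2ak2, the kinase PKR that halts translation on double-stranded RNA, was lower in GMP with a difference of -0.93 at an adjusted p of 0.0496, a call lost in 8 of the 10 fits that each left out 1 replicate, and its CMP difference of -0.28 was not called. Second probe sets moved the same way for Ddx58 (-1.70 in GMP) and Trim25 (-1.78), whereas the dimmest probe set of Trim25 differed by 0.66 in GMP, not called, and was higher in CMP by 0.93.

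The oligoadenylate synthetases make the messenger that activates RNase L, and their family split. Oasl2, a family member with a ubiquitin-like tail, had wild-type HSC values of 6.08, 5.79, 6.56, 6.54 and 8.82 in replicates 1 to 5. Its GMP values were 3.46, 3.99, 3.92, 4.08 and 3.54, all below background, and its CMP values were 4.70, 4.77, 4.17, 4.30 and 4.36. No GMP or CMP replicate reached the lowest HSC replicate, and HSC replicate 5 stood above the rest. The fitted differences were -2.96 (SE 0.43, adjusted p 5.6e-07) in GMP and -2.30 (SE 0.43, adjusted p 7.0e-05) in CMP. With each dim replicate raised to background, HSC were at least 4.91-fold higher than GMP and at least 4.55-fold higher than CMP. These bounds, and those for Ifit1, Ifit3, Mx1 and Usp18 below, use the HSC mean with replicate 5 included. That replicate was the highest for each of these genes, so the bounds would be smaller without it. Oas2 was lower in both, with differences of -1.46 in GMP and -1.39 in CMP. Oas1a was lower in CMP (difference -1.41, SE 0.26), but not called in GMP (-0.13), and it was higher in GMP than in CMP by 1.28 (adjusted p 1.2e-04). Oasl1, a repressor of Irf7 translation, was not called in either, with differences of -0.14 and 0.47, and Oas3 lay below background in all 4 wild-type populations.

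The Ifit proteins are known to bind foreign RNA and block its translation. Ifit1 had wild-type HSC values of 5.53, 5.98, 5.98, 6.30 and 8.31, GMP values of 4.16, 3.62, 3.90, 4.57 and 4.10, and CMP values of 4.72, 4.55, 4.13, 3.97 and 4.08. Neither GMP nor CMP overlapped HSC, and again HSC replicate 5 was the highest. The difference from HSC was -2.35 (SE 0.42, adjusted p 1.6e-05) in GMP and -2.13 (SE 0.42, adjusted p 1.1e-04) in CMP, at least 3.83-fold and at least 3.70-fold on the scale bounded by background. Ifit2 was lower in GMP (-1.80), where replicate 1 at 4.17 lay far under the other values of 6.15 to 6.53, and in CMP (-1.03). Ifit3 was lower in CMP, whose mean lay below background (-1.06, adjusted p 0.0445, at least 1.86-fold; in GMP -0.56, adjusted p 0.269), and the GMP and CMP means themselves did not differ by the same model (0.50, adjusted p 0.35).

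Rsad2, which encodes viperin, an enzyme that makes a chain-terminating nucleotide, had the largest fitted difference of the set in both populations, though that of Oasl2, below background there, is bounded only from one side. Its wild-type HSC values were 8.92, 8.16, 9.44, 8.66 and 10.34, its CMP values 7.13, 6.28, 6.78, 6.82 and 6.50, and its GMP values 6.85, 4.50, 5.82, 6.39 and 5.66. The lowest HSC replicate lay above the highest CMP and GMP replicate. The differences were -3.26 (SE 0.40, adjusted p 1.8e-08) in GMP and -2.40 (SE 0.40, adjusted p 1.2e-05) in CMP, and a dimmer probe set of the gene differed by -1.26 in GMP. Mx1, a GTPase active against influenza virus, was lower in CMP (-1.88, with a CMP mean below background, so HSC were at least 3.08-fold higher) and not called in GMP (-1.06, adjusted p 0.0573). Isg20, an exonuclease that degrades RNA, was lower in GMP (-1.84), its CMP difference of 0.53 was not called, and GMP minus CMP was -2.37 (adjusted p 3.5e-09). Ifitm3, which blocks viral entry at endosomes, was lower in CMP (-1.94) and not called in GMP (-0.49). Bst2, the tether that holds budding virus, had differences of 0.69 and 0.14, neither called, and Mx2 of 0.13 and -0.26, with no call.

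The interferon-inducible GTPases attack the vacuoles of intracellular pathogens and are known as strong targets of interferon gamma. Gbp2 had wild-type HSC values of 8.31, 8.45, 8.37, 8.83 and 9.66, GMP values of 8.04, 6.11, 5.55, 6.69 and 6.46, and CMP values of 6.85, 6.67, 6.48, 5.98 and 6.19. GMP replicate 1 lay well above the other GMP replicates but still under every HSC replicate. Gbp2 differed from HSC by -2.16 (SE 0.36, adjusted p 7.5e-06) in GMP and by -2.29 (SE 0.36, adjusted p 4.4e-06) in CMP, and its other probe set gave -2.12 and -2.41. Gbp3, of the same family and described in full after its values were seen because it alone was higher in GMP, had HSC values of 7.12, 7.49, 8.34, 7.64 and 8.99 and GMP values of 8.43, 9.24, 9.23, 9.40 and 8.9996. It was higher in GMP by 1.14 (SE 0.35, adjusted p 0.0084), with overlap through HSC replicate 5 and GMP replicate 1, and lower in CMP (-1.72), so that GMP exceeded CMP by 2.87 (SE 0.35, adjusted p 1.2e-08). Igtp was lower in both (-0.9953 and -1.42), and Irgm1, the regulator of that GTPase group, was not called (-0.60 and -0.14).

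Of the remaining genes, Trim30a, a negative regulator of inflammatory signalling, had even values in HSC (SD 0.23) and more scattered ones in GMP (SD 0.61). Its HSC values were 10.08, 9.58, 10.13, 9.95 and 10.11, its GMP values 8.60, 7.01, 7.33, 7.92 and 7.65, and its CMP values 7.91, 8.26, 8.15, 7.79 and 7.22. HSC replicate 5 did not stand out here. It differed from HSC by -2.27 (SE 0.24, adjusted p 5.8e-10) in GMP and by -2.10 (SE 0.24, adjusted p 5.9e-09) in CMP, but a second probe set of the gene read 6.38 in GMP and 6.36 in HSC, so this difference rests on 1 probe set. Parp14, an ADP-ribosyltransferase, was lower in both (-1.50 and -1.66), as was Xaf1, a pro-apoptotic interferon target (-1.53 and -0.90). Usp18, the protease that removes Isg15 and damps receptor signalling, was lower in GMP (-1.70, with a GMP mean below background, so HSC were at least 2.87-fold higher) and not called in CMP (-0.43). Ifi35, a partner of other interferon-induced proteins, differed by -0.02 and -0.14, with no call.

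**Figure D3:**
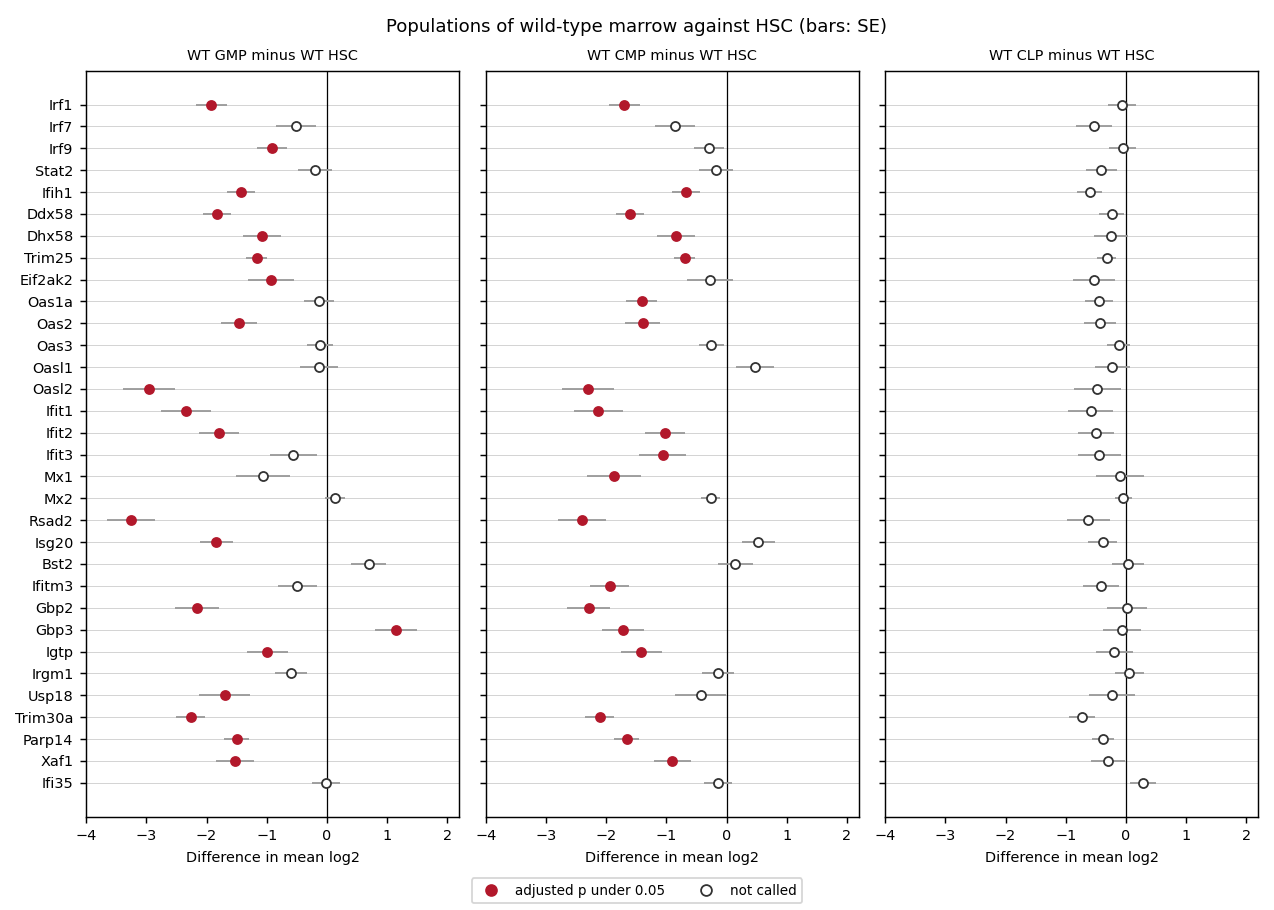
Difference in mean log2 intensity from wild-type HSC for each of the 32 genes in wild-type GMP, CMP and CLP (panels), with limma's SE as bars and filled points for an adjusted p under 0.05. Most points lie left of 0 in GMP and CMP, Gbp3 is the filled point on the right in GMP, and no point is filled in CLP.

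Against HSC, wild-type CLP had no called difference in this set. None of the 32 genes was called by limma, where 0.319% of all genes were called in either direction, and 3 had an unadjusted p below 0.05. The median difference was -0.31 and became -0.07 without HSC replicate 5. The smallest p-values belonged to Trim30a, with HSC values as above and CLP values from 8.90 to 9.67 around a median of 9.22, and to Ifih1, with HSC values of 9.15, 9.42, 9.79, 9.54 and 10.06 and CLP values from 8.13 to 9.47 around a median of 8.99. Both overlapped between the groups, with differences of -0.73 (SE 0.22, adjusted p 0.154) and -0.60 (SE 0.21, adjusted p 0.272). Against CLP in place of HSC, which does not involve HSC replicate 5, GMP had 19 genes lower and 2 higher, Gbp3 and Bst2 (14.7% and 28.3% of all genes), and CMP had 14 lower and 1 higher, Isg20 (11.8% and 11.9%). Wild-type CLP replicate 8 was itself the highest CLP replicate for 14 of the 32 genes, as for 12.7% of all genes. Its CLP markers, at 7.66, lay below the others at 9.33 to 10.1. With each replicate left out in turn, the calls against CLP ranged from 18 to 22 for GMP and from 15 to 16 for CMP. Between GMP and CMP, 3 genes were higher in GMP (Gbp3, Ifitm3 and Oas1a) and 4 lower (Isg20, Usp18, Ifih1 and Trim25), where 20.3% and 11.5% of all genes were. That count rose from 7 to 18 when the fit held only these 2 groups, and the count for CMP against CLP from 15 to 23 with array weights.

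The same comparisons were made among the Mll-AF9 populations, which share their own 5 HSC replicates. In Mll-AF9 GMP against Mll-AF9 HSC, 22 genes were lower and 2 higher, Gbp3 by 1.24 and Bst2 by 0.88 (12.5% and 20.4% of all genes), with a median difference of -1.17. Rsad2 differed by -3.30 and Ddx58 by -2.05. In Mll-AF9 CMP, 16 genes were lower and 1 higher, Isg20 by 0.93 (10.2% and 10.7% of all genes), with a median of -0.83. Mll-AF9 CLP and Mll-AF9 HSC had no call among the 32, where 3.73% of all genes were called in either direction, and 6 genes had an unadjusted p below 0.05. Leaving out Mll-AF9 CLP replicate 6 or HSC replicate 5 gave 2 calls each, and leaving out HSC replicate 2 gave 1. None of the 32 genes had a genotype effect that differed between a progenitor population and HSC in the test of that difference by limma (0.044% of all genes called for GMP, 0% for CMP and 0.143% for CLP). The counts at an unadjusted p below 0.05 were 0 genes for GMP, 1 for CMP, which was Irf1, and 0 for CLP.

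The comparison the study was made for, Mll-AF9 against wild type within each population, called no gene of the set (limma). The whole-array background was low too, where limma called 0.264% of all genes in either direction for GMP, 0.418% for CMP, 0.346% for CLP and 0.0495% for HSC. At an unadjusted p below 0.05 GMP had 4 of the 32 genes, CMP 3, CLP 4 and HSC 1, against 9.63%, 6.75%, 9.29% and 6.38% of all genes. Median differences, Mll-AF9 minus wild type, were 0.01, 0.16, 0.19 and -0.01 in the same order, against -0.02, 0.00, 0.06 and 0.01 over all genes. The 95% interval of a difference reached, at the median over the 32 genes, 0.44 to either side for GMP, 0.33 for CMP, 0.51 for CLP and 0.68 for HSC.

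In GMP the smallest p-values were those of Ifitm3 and Irf7. Ifitm3 read 9.91, 9.64, 9.85, 10.004 and 9.82 in wild type and 9.61, 8.06, 9.26 and 9.01 in Mll-AF9, and Irf7 read 5.54, 5.33, 5.19, 5.34 and 5.36 against 5.07, 4.99, 4.86 and 4.57. Neither gene overlapped between genotypes, as held for 2.12% of all genes in the same direction. The differences were -0.86 (SE 0.24, 95% interval -1.38 to -0.34, adjusted p 0.235) and -0.48 (SE 0.15, interval -0.81 to -0.15, adjusted p 0.296), and neither passed the threshold.

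In CMP, Parp14 read 6.99, 7.26, 7.14, 6.97 and 6.80 in wild type and 7.63, 7.21, 7.65 and 7.37 in Mll-AF9, and Trim25 read 10.38, 10.81, 10.76, 10.66 and 10.50 against 11.00, 10.69, 11.27 and 10.75. Parp14 had 1 Mll-AF9 replicate within the wild-type range and Trim25 had 2. Their differences of 0.43 (SE 0.14, adjusted p 0.368) and 0.31 (SE 0.13, adjusted p 0.684) were not called. Parp14 had a positive difference in all 4 populations, at 0.36 in GMP, 0.46 in CLP and 0.28 in HSC, with no call in any.

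In CLP the smallest p-values were those of Igtp and Irgm1. Mx1 and Gbp2 differed by -0.74 and 0.73, neither called. Igtp ran from 6.94 to 8.50 around a median of 7.46 in wild type and from 7.44 to 10.1 around 8.43 in Mll-AF9, and Irgm1 from 6.40 to 7.40 around 7.04 and from 7.21 to 8.56 around 7.43. The highest Mll-AF9 value of both was that of replicate 4. The differences were 0.90 (SE 0.31, adjusted p 0.353) and 0.60 (SE 0.22, adjusted p 0.378), and 0.64 and 0.44 without that replicate. Neutrophil markers moved with genotype here, with a list mean of 6.72 ± 2.50 in wild-type CLP (SD, n = 8; 4.03 to 11.5) and 8.99 ± 1.95 in Mll-AF9 CLP (n = 7; 7.09 to 12.2). All 5 of them had a higher mean in Mll-AF9, with a median difference of 2.38, and none was called. Markers of mature T and NK cells lay at 4.99 ± 0.42 and 5.56 ± 0.36, with a median difference of 0.50 over 5 genes and no call. The part of either list in these differences was not tested.

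In HSC, Trim25 read 11.25, 11.16, 11.43, 11.43 and 11.32 in wild type and 11.60, 11.90, 11.88, 11.93 and 11.08 in Mll-AF9, and Mx1 read 6.37, 5.86, 6.15, 4.75 and 7.51 against 5.03, 4.46, 4.43, 4.84 and 6.98. For Trim25, 4 of the 5 Mll-AF9 values lay above all wild-type values, and for Mx1 both groups held 1 high value in replicate 5. The differences of 0.36 (SE 0.17, adjusted p 0.779) and -0.98 (SE 0.51, adjusted p 0.779) were not called. Leaving out wild-type HSC replicate 5 moved the median of the 32 genotype differences from -0.01 to 0.28 and changed no call.

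**Figure D4:**
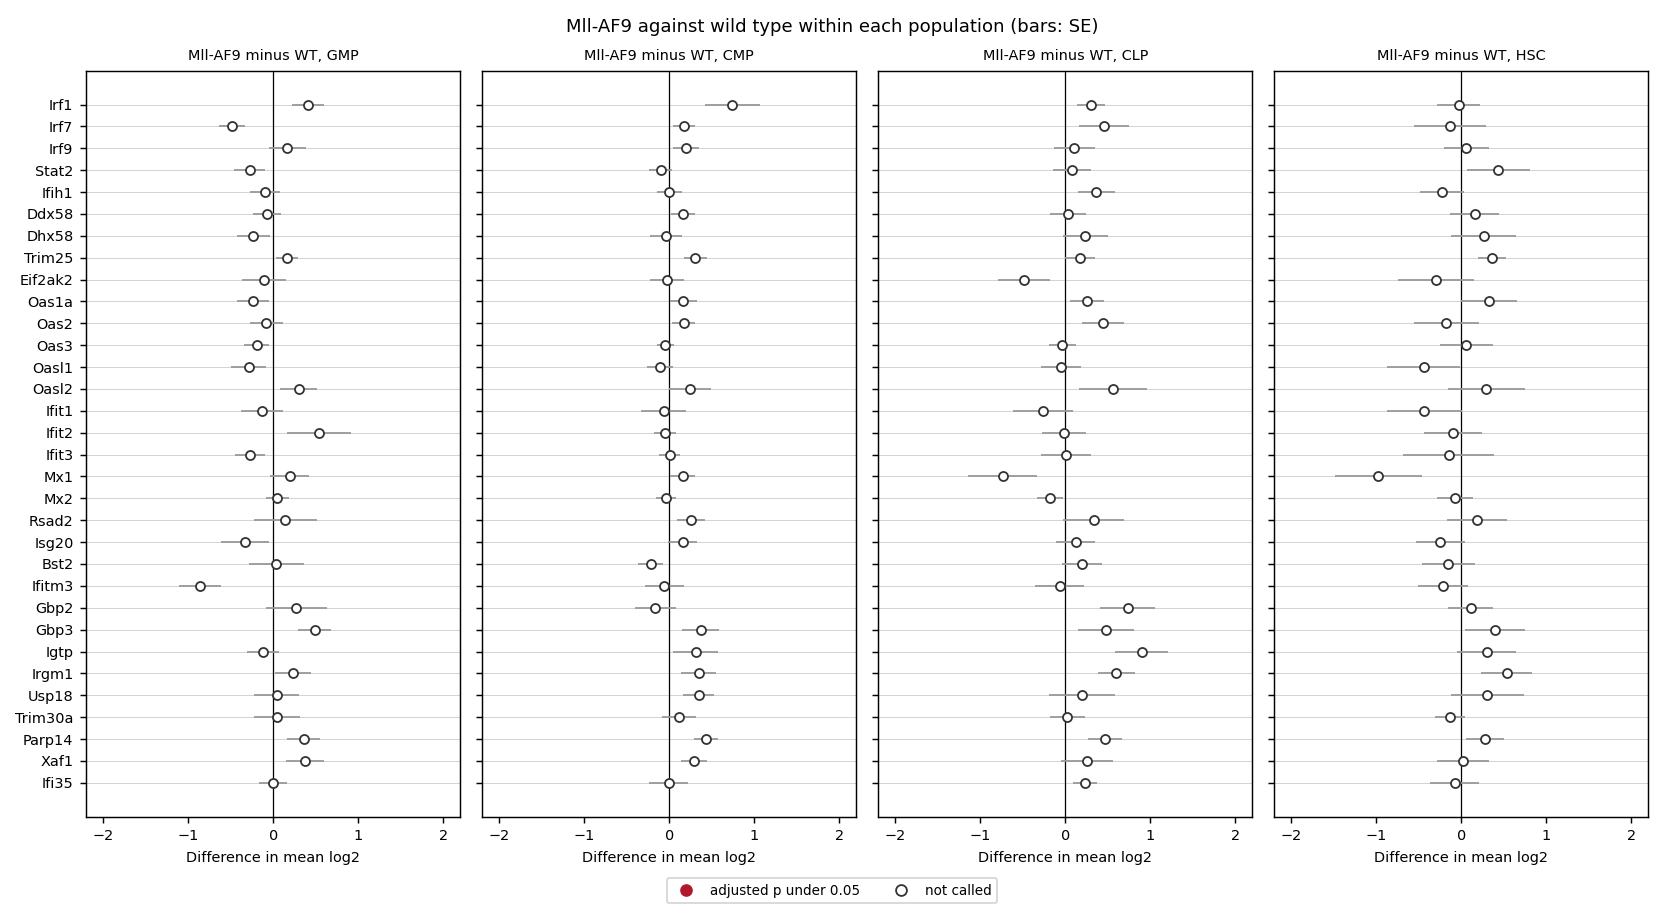
Difference in mean log2 intensity, Mll-AF9 minus wild type, for each of the 32 genes within GMP, CMP, CLP and HSC (panels), with limma's SE as bars. No point is filled, since no gene had an adjusted p under 0.05, and the widest bars are in HSC.

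The genes that send and receive the interferon signal were followed as a list of 34, of which 31 were measured. The ligand genes Ifnb1, Ifna4 and Ifng had means below background in all 8 groups, although Ifng read 4.78 in Mll-AF9 CLP replicate 1. Against wild-type HSC, 7 of the 31 were higher and 7 lower in GMP, and 2 higher and 12 lower in CMP. Over all genes the shares were 24.6% higher and 13.5% lower in GMP, and 11.7% and 10.7% in CMP. Without HSC replicate 5, the list had 8 higher and 6 lower in GMP, and 2 higher and 10 lower in CMP. The chain Ifnar1 of the type I receptor was lower in GMP (-1.66) and CMP (-0.85), whereas Ifnar2, named here as its partner chain after its value was seen, was higher in GMP by 0.64. Socs3, a feedback inhibitor of cytokine receptors, was lower in GMP (-3.09) and CMP (-2.81), and Irf8, a factor that GMP use for monocyte fate, was higher by 2.50 in GMP. Sting1, the adaptor of DNA sensing, was higher by 1.40 in GMP and lower in CMP (-2.93). The genes named are not all those with large differences. Stat3 had means of 6.64 in GMP and 6.10 in CMP against 8.18 in HSC (SD 1.62). In CMP, Ikbke lay at 4.65 against 6.05 in HSC, and Tlr7 at 4.00, below background, against 5.26. No gene of the list was called between genotypes in any population (limma).

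A further list of 59 genes known to respond to interferon, of which 53 were measured, was read beside the set. In GMP 25 were lower and 7 higher than in HSC, with a median difference of -0.56, and in CMP 30 were lower and 2 higher, with a median of -0.75. Over all genes, 13.5% were lower and 24.6% higher in GMP, and 10.7% and 11.7% in CMP. Without HSC replicate 5, which was the highest HSC replicate for 41 of the 53, GMP had 22 lower and 8 higher (median -0.32) and CMP 21 lower and 3 higher (median -0.63). The largest differences belonged to Iigp1, a GTPase of the same kind as Igtp (-4.97 in GMP and -4.18 in CMP), and in GMP also to Rtp4, a chaperone of receptors (-3.72), and the GTPase genes Irgm2 (-2.54) and Gbp6 (-2.52). In CMP the next were Gbp6 (-2.87), Ifitm1, a relative of Ifitm3 (-2.46), and Irgm2 (-2.43). The GMP mean of Iigp1, 3.99, and both means of Gbp6, 3.85 and 3.50, lay below background. Between genotypes, 2 genes of this list were called. The chemokine gene Ccl5 was higher in Mll-AF9 CLP by 1.95 (SE 0.33, adjusted p 0.0091). Ccl5 is also a gene of T and NK cells, whose markers lay higher in the same comparison as given above, among them Klrd1 at 6.36 against 5.06, not called, and their part in it was not tested. Gbp6 was higher in Mll-AF9 CMP by 0.80 (SE 0.15, adjusted p 0.0328), though its means of 4.30 and 3.50 both lay below background.

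Wild-type HSC replicate 5 was the highest of its group for 28 of the 32 genes, where it was the highest for 26.3% of all genes. Its median over the set was 8.52, against 6.86 to 7.13 in the other 4 wild-type HSC replicates, and it exceeded their mean by more than 1 log2 unit for 21 genes, as for 4.20% of all genes. All 5 oligoadenylate synthetases, all 3 Ifit genes, all 4 GTPases and all 6 other antiviral effectors were highest there. Ifit3 read 7.57 against 4.03 to 5.97, Irf7 7.66 against 5.07 to 5.61, and Usp18 7.84 against 5.01 to 6.00. Oas3, below background in every other wild-type HSC replicate at 3.88 to 4.18, read 5.85. The exceptions were Irf1, Eif2ak2, Trim25 and Trim30a, which lay within the range of the other replicates. Of the further list, 41 of 53 genes were highest in this replicate and its mean was 8.45 against 7.35 to 7.54. The interferon ligand and signalling list did not share this, at 6.57 against 6.44 to 6.60. Markers of other cells also differed: all 5 GMP markers were highest there, with a mean of 9.99 against 8.01 to 8.75, and 4 of 6 monocyte and macrophage markers, with a mean of 7.38 against 5.30 to 6.08 and Adgre1 below background. HSC markers, at 7.49, lay within the range of 6.93 to 7.91, and plasmacytoid dendritic cell markers, at 5.31, within 5.20 to 5.92. CMP and erythroid markers, at 6.00, lay above the others at 5.24 to 5.86, and mature B cell markers, at 6.55, below them at 7.02 to 7.30. The part of the marker differences in the high interferon-induced genes was not tested.

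**Figure D5:**
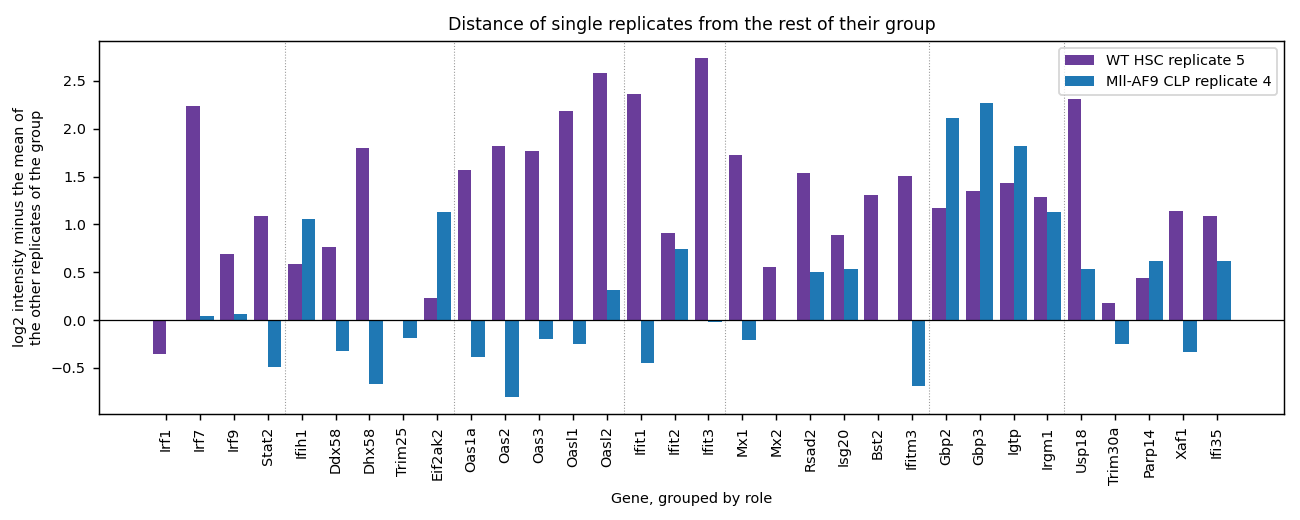
Log2 intensity of wild-type HSC replicate 5 and Mll-AF9 CLP replicate 4 minus the mean of the other replicates of the same group, for each of the 32 genes (bars, ordered by role with dotted lines between roles). The HSC replicate is above 0 for all genes but Irf1 and reaches 2.74 at Ifit3, whereas the CLP replicate has its highest bars at Gbp2, Gbp3 and Igtp, from 1.82 to 2.27.

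Mll-AF9 CLP replicate 4 differed in another subset. The 4 GTPases all had their highest value there, with Gbp2 at 11.3 against 8.75 to 9.75, Gbp3 at 10.3 against 7.54 to 8.75, Igtp at 10.1 against 7.44 to 8.79 and Irgm1 at 8.56 against 7.21 to 7.84. No oligoadenylate synthetase was highest there, and Oas2 had its lowest value, 6.62. Ifit1 at 5.19 and Mx1 at 5.11 lay inside the range of the other replicates. Over the whole set the median distance from the mean of the other replicates was 0.00, with 6 genes more than 1 log2 unit above it. In the further list 22 of 53 genes were highest there, and among them, chosen after their values were seen, were the GTPase genes Iigp1 at 11.8, Gbp6 at 10.5, Gbp7 at 11.0, Irgm2 at 9.93 and Ifi47 at 12.3. Ifng read 4.40 in this replicate, within a group that ran from 2.65 to 4.78. T and NK cell markers, at 5.68, lay within the range of 4.78 to 5.82, and monocyte markers, at 6.61, at the upper end of 5.92 to 6.61. CLP markers, at 7.64, were the lowest of the group. HSC markers, at 5.87, lay below the others at 6.15 to 8.24, and CMP and erythroid markers, at 6.74, above the others at 4.93 to 6.59. The difference between 3' and 5' control probe sets, a sign of RNA quality, was 4.93, the highest of all 43 replicates. The part of these differences in the GTPase values was not tested.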

How the data were processed

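The authors deposited 1 value per probe set and array, linear intensities made by RMA per the submitters' processing notes; per the labels, RNA was amplified by 2-cycle labelling. Values were turned to log2, and the 2 runs of 8 CMP replicates were averaged. Of 45101 probe sets, 34945 had 1 gene symbol and 10092 had several or none, and each of the 18193 genes took its probe set with the highest mean. The members and lists were chosen with earlier results of these data known. Replicate values are given, for each genotype comparison and each wild-type comparison with HSC, for up to 4 called members with the largest absolute difference whose brighter group is above background, or where fewer than 2 were called, for the 2 with the smallest p. Of the other 2 lists, up to 4 called genes per comparison are named. In the signalling list, the order by absolute difference was not followed throughout.

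Genotypes were compared within a population, and populations and differences of genotype effects in 1 model of all 8 groups, with limma 3.58.1 (R 4.3.3; lmFit, eBayes with an intensity trend). Benjamini-Hochberg adjustment ran over all 18193 genes with a threshold of 0.05. Between 55.5% and 63.2% of genes lay above background in a replicate. The number of arrays limits the precision. Probe sets of close relatives (Oas1a, Ifit3, Gbp and Trim30 families) may cross-hybridise. The alternatives are other normalization, weights, probe sets, filters, covariates, runs, sample sets, a replicate block and each replicate left out.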

Additional observations from a re-analysis of the deposited data

Results flagged for a closer look

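Within groups of 4 to 8 replicates, 20 of 231 sets of values of a gene, and 1 of 8 sets of medians, had a highest or lowest replicate far from the others by Dixon's 95% criterion, which chance meets in about 1 in 20. Genes of the same replicate are not independent, so that share is only a guide. Sets with a group mean at or below background were left out, among them Oas3 in wild-type HSC, where replicate 5 read 5.85. Wild-type HSC replicate 5 held the median over the set, 8.52 against 6.86 to 7.13, and was high for Irf7 at 7.66, Ifit1 at 8.31, Oas1a at 10.30, Oas2 at 8.74 and Oasl2 at 8.82. Gbp2 was high in Mll-AF9 CLP replicate 4, at 11.28. Wild-type GMP replicate 1 was low for Ifit2 at 4.17 and high for Mx1 at 5.92 and Ifi35 at 11.24. Mll-AF9 HSC replicate 5 was low for Ifit3 at 4.18 and high for Mx1 at 6.98 and Ifi35 at 11.45. Other single values were Stat2 at 4.29 in Mll-AF9 CMP replicate 2, Isg20 at 6.17 in Mll-AF9 GMP replicate 2, Rsad2 at 7.10 in Mll-AF9 CLP replicate 2 and Ifi35 at 9.55 in Mll-AF9 CMP replicate 3. The rest were Ifih1 at 8.13 in wild-type CLP replicate 6 and at 8.49 in Mll-AF9 HSC replicate 2, Bst2 at 6.47 in wild-type CMP replicate 5 and Parp14 at 7.13 in Mll-AF9 GMP replicate 3.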

How the results depend on the processing

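No gene of the set was called between genotypes, or in the test of a genotype effect that differs from HSC, under any alternative run. The 18 named differences kept their direction and their side of the threshold in all 372 alternative fits. Of 367 alternative counts of called genes, 9 moved by more than 1.5 times. Wild-type GMP against CMP gave 16 calls with array weights, 18 with only the groups of the contrast and 11 with all runs and a random effect, against 7. Wild-type CMP against CLP gave 23 with array weights, against 15. Mll-AF9 CLP against HSC, with 0 calls, gave 1 with quantile normalization, 1 with the replicate block, and 0 to 2 when each replicate was left out. The cause was not tested. The replicate block gave 22 calls for wild-type GMP against HSC and 21 for CMP against HSC, against 20 in both. Same-numbered replicates did not correlate in every pair, so the numbers were not taken to pair samples. Chosen after seeing the data, leaving out wild-type HSC replicate 5 moved the number of genes with their highest wild-type mean in HSC from 24 to 14 and in CLP from 3 to 11, and kept the counts of the 2 wider lists within 1.5 times. Signal below background limits Ifit1, Oasl2 and Usp18 in GMP, Ifit1, Ifit3, Oasl2, Mx1 and Mx2 in CMP, and Oas3 in all wild-type populations, where fitted differences are compressed.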
